A study of Mus musculus with 79 samples.

Results

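The genes described here are 9 genes of the aryl hydrocarbon receptor (AHR) pathway: Ahr, Arnt, Ahrr, Cyp1a1, Cyp1a2, Cyp1b1, Tiparp, Nqo1 and Aldh3a1. They were picked by name from the 19403 to 21023 mouse genes with reads in each set of libraries. They were chosen with earlier results of these data known. AHR is a ligand-activated transcription factor of the bHLH-PAS family that waits in the cytoplasm with HSP90 chaperones. Once a ligand binds, AHR enters the nucleus, pairs with ARNT and binds DNA at a core of GCGTG near its target genes, of which Cyp1a1 is the best known. Its ligands include dioxins and many indoles, the chemical family that also holds the plant hormone auxin (indole-3-acetic acid, IAA).

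RNA was sequenced from 3 sets of mouse embryonic stem cells kept in medium with serum and leukemia inhibitory factor, to ask how genes respond to retinoic acid (RA), to loss of cohesin and to loss of an enhancer in the Hoxb locus. SCC1-mAID cells carry the genotype E14;Rosa26::Tir1;Scc1-mAID-eGFP in every group, untreated cells included, so that auxin can trigger destruction of the cohesin subunit SCC1. Their nuclear RNA was taken after 6 h of 500 uM auxin with 1 uM RA for the last 4 h, after 6 h of auxin alone, after 4 h of RA alone and from untreated cells, with 3 libraries each. Wild-type E14 cells gave total RNA at 0 h (2 libraries), 2, 4 and 6 h (4 each), 24 h (3), 48 h (4) and 72 h of RA (4); the last time is 72 h in the sample titles and 74 h in another label. Nuclear RNA also came from the deletion clones E3 and H12 (E14;HoxTransEdel), which lack a transient enhancer in the Hoxb locus, and from the wild-type clone G4, before RA (0 h) and after 2, 4, 6, 24, 48 and 74 h of it, with 2 libraries per clone and time. G4 is the only wild-type clone, so genotype and clone cannot be told apart. No cells without the degron or TIR1 were exposed to auxin among the libraries analysed here, so auxin itself and the loss of SCC1 cannot be told apart. No E14 or clone library here is labelled as cultured without RA past 0 h. RA and time in culture therefore cannot be told apart in those sets.

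Libraries held 3126025 to 7497894 reads in SCC1-mAID cells, 2351105 to 21078996 in E14 cells and 4753860 to 10448512 in the clones. Levels are CPM, the reads of a gene relative to all reads of its library after TMM scaling, unless another unit is named. Cyp26a1, which degrades RA and is an early RA target, rose with 4 h of RA by a log2 fold change of 7.22 in the presence of auxin (adjusted p = 1.77e-10) and 6.75 without it (adjusted p = 1.26e-10; edgeR's quasi-likelihood test, Benjamini-Hochberg adjustment). The RNA of Rad21, the gene for SCC1, had log2 fold changes with auxin of 0.10 (adjusted p = 0.897, with RA) and 0.10 (adjusted p = 0.806, without RA); auxin acts on the protein, so RNA does not check the depletion. Summed levels of 8 pluripotency markers were 2650 to 3238 CPM with auxin and RA, 3060 to 3590 with auxin, 2732 to 3039 with RA and 3551 to 3886 in untreated SCC1-mAID cells. In bulk RNA, fewer cells of a type and less RNA per cell cannot be told apart.

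Cyp1a1, Cyp1b1 and Ahrr had the largest log2 changes of the members with auxin, although Ahrr did not pass the test. The promoters of 4 members are shown, these 3 and Cyp1a2, the neighbour of Cyp1a1, which also did not pass it. Each is the stretch of 250 bases before the RefSeq transcription start (GRCm38.p6), written 5′ to 3′ on the strand of the gene, and capitals mark the letters GCGTG on either strand (GCGTG or CACGC). Cyp1a1 lies at chr9:57697363-57697612 (plus strand), Cyp1b1 at chr17:79715062-79715311, Ahrr at chr13:74292332-74292581 and Cyp1a2 at chr9:57683656-57683905 (minus strand).
Cyp1a1: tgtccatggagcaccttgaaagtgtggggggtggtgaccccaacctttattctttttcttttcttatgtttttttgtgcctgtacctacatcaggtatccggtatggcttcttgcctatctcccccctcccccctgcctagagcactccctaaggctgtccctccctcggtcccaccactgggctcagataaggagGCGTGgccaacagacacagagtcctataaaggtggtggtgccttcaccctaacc
Cyp1b1: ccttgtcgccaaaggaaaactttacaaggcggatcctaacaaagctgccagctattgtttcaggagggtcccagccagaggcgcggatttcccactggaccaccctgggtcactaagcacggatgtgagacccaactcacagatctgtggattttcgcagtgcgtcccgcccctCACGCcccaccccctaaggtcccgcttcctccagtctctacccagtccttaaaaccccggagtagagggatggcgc
Ahrr: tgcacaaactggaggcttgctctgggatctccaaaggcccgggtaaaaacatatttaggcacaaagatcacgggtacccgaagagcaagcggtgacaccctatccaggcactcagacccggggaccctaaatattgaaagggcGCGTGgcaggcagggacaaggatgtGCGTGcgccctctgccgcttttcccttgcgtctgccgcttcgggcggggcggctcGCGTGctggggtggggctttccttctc
Cyp1a2: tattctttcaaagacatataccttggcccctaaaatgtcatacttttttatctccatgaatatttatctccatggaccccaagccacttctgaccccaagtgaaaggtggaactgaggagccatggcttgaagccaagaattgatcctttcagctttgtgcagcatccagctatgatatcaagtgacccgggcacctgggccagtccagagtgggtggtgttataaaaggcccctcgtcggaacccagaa
The letters begin 54 bases before the start in Cyp1a1 and 76 bases before it in Cyp1b1. Ahrr holds them at 107, 82 and 27 bases before its start, a count of 3 or more that 2.77% of 32851 promoters of the same length reach. Cyp1a2 and Nqo1 do not hold these letters in this window. Arnt holds them at 29 bases and Tiparp at 170 bases before the start, so 5 of 7 members with a RefSeq entry hold them, against 28.2% of all promoters. Ahr and Aldh3a1 had no entry. A match of 5 letters is a description of the sequence and not a measured binding site. The members were chosen as genes of this pathway, so their share is not an independent test. Letters further upstream than these 250 bases were not counted.

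The RNA of the CYP1 enzymes Cyp1a1 and Cyp1b1 rose in auxin-treated SCC1-mAID cells, with and without RA, by more than that of any other gene tested. The 7 other members, among them the receptor Ahr and its partner Arnt, did not pass the test in either comparison. Of 9 members, 2 rose and 0 fell with auxin alone, where 0.0999% of 14015 genes tested rose (14 genes). With auxin and RA against RA, 2 of 9 rose and 0 fell, where 0.0428% of the genes tested rose (6 genes). The members were chosen with earlier results of these data known, so these counts are not an independent test.

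Cyp1a1 encodes the cytochrome P450 that is the classic readout of an active AHR. In the nuclear RNA tables its row spans chr9:57687928-57703824 on the plus strand in mm10, a transcript that begins upstream of the promoter printed above, while the E14 row (chr9:57697613-57703824) begins at that promoter. It had 213.5, 141 and 213 CPM with auxin and RA, 90.4, 75.2 and 389 CPM with auxin alone, 2.87, 4.415 and 2.89 CPM with RA alone and 2.16, 4.35 and 4.10 CPM in untreated cells. Every library with auxin stood far above every library without it, and the highest was replicate 3 of auxin alone. With auxin and RA against RA the log2 fold change was 5.83 ± 0.61 (SE; 56.9-fold, adjusted p = 0.000441, edgeR's quasi-likelihood test with Benjamini-Hochberg adjustment), rank 1 of 14015 genes. With auxin against untreated it was 5.75 ± 0.60 (53.7-fold, adjusted p = 0.000791), again rank 1. Without auxin replicate 3 the change with auxin alone was 4.59 (adjusted p = 6.4e-08), within a range over 14 alternatives of 4.59 to 6.15 and adjusted p from 1.62e-23 to 0.0725. The call was lost where only the compared groups entered the fit (5.78, adjusted p = 0.0725).

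Cyp1b1, the CYP1 enzyme that is mainly found outside the liver, spans chr17:79706953-79715041 on the minus strand. It had 34.02, 21.0 and 18.9 CPM with auxin and RA, 21.3, 19.3 and 80.1 CPM with auxin alone, 1.26, 0.779 and 1.083 CPM with RA alone and 1.62, 1.67 and 2.503 CPM in untreated cells. The groups with and without auxin did not overlap, and auxin replicate 3 was again the highest library. Log2 fold changes were 4.52 ± 0.61 with auxin and RA against RA (22.9-fold, adjusted p = 0.00281) and 4.42 ± 0.53 with auxin against untreated (21.4-fold, adjusted p = 0.00127), rank 2 of all genes tested in both. Without auxin replicate 3 the change with auxin alone was 3.42 (adjusted p = 2.47e-05; 3.42 to 4.80 and adjusted p from 1.09e-10 to 0.0423 over 14 alternatives). With no filter on low counts the call with auxin and RA against RA was lost (4.51, adjusted p = 0.0934).

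**Figure D1:**
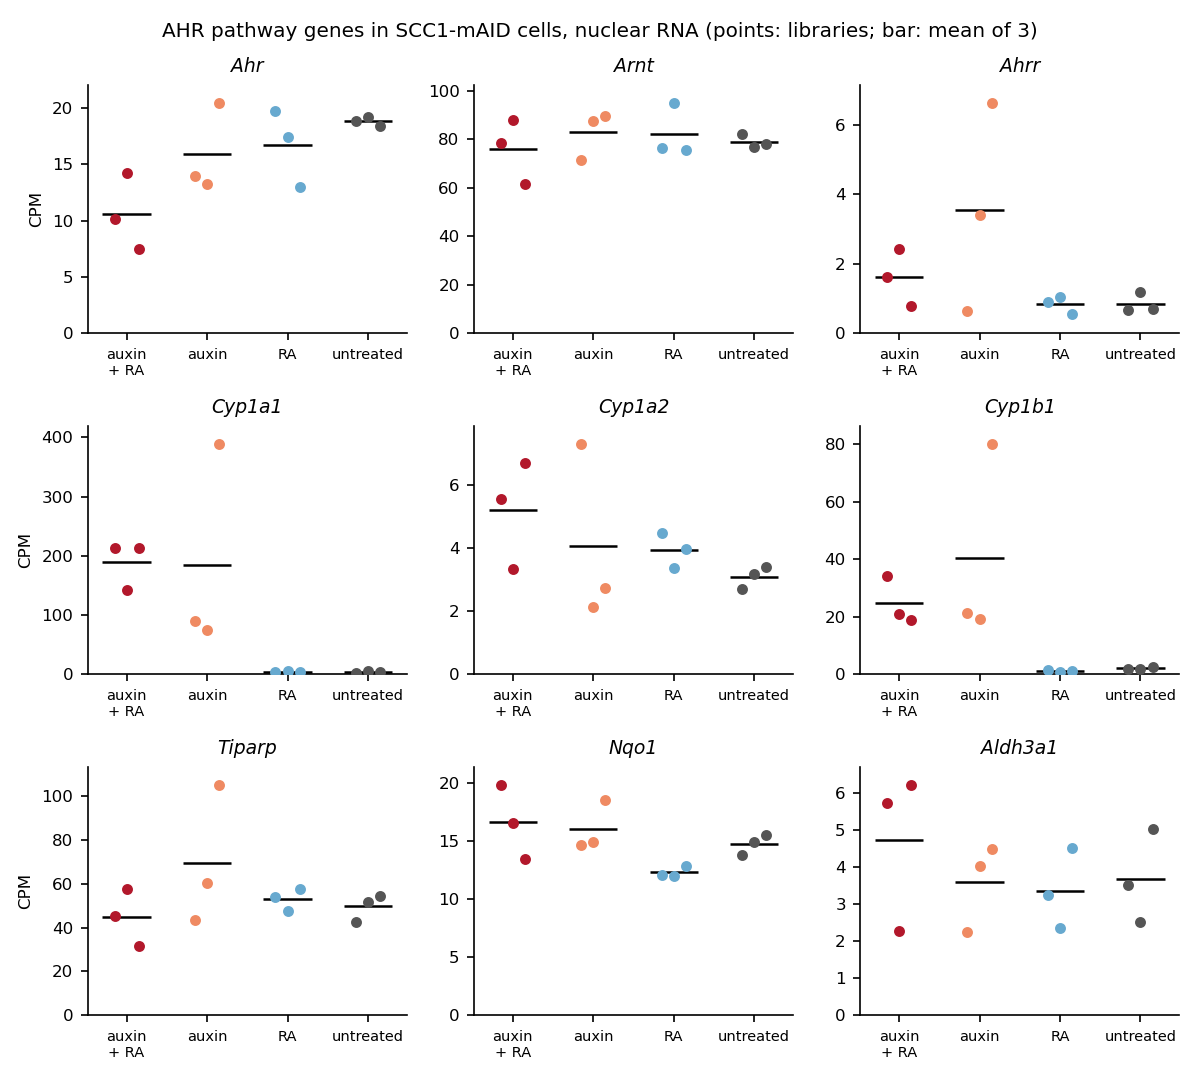
Level of each member (CPM, linear axis from 0, a scale of its own in each panel) in the 12 SCC1-mAID libraries, by treatment; points are libraries and bars are group means. Cyp1a1 sits at 75.2 to 389 CPM in the libraries with auxin and at 2.16 to 4.415 CPM in those without.

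The gene at rank 3 with auxin and RA against RA was the somatostatin receptor gene Sstr5 (log2 fold change 2.05, adjusted p = 0.187), and with auxin against untreated it was Hoxb1 (2.30, adjusted p = 0.381); neither passed the test. Tmem220 was the only other gene called up in both comparisons, with log2 fold changes of 1.25 and 1.12. The 3 shared genes were 3 of 6 called up with auxin and RA against RA and 3 of 14 with auxin alone; these comparisons share no libraries. Over the 12 libraries, log2 levels of Cyp1a1 and Cyp1b1 had a Pearson r of 0.974. The next nearest genes were Nek8 (r = 0.910) and Brd8 (0.907) for Cyp1a1, and Tmem220 (0.930) and Igfbp5 (0.910) for Cyp1b1. These libraries fall into groups with and without auxin, so r describes that split.

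**Figure D2:**
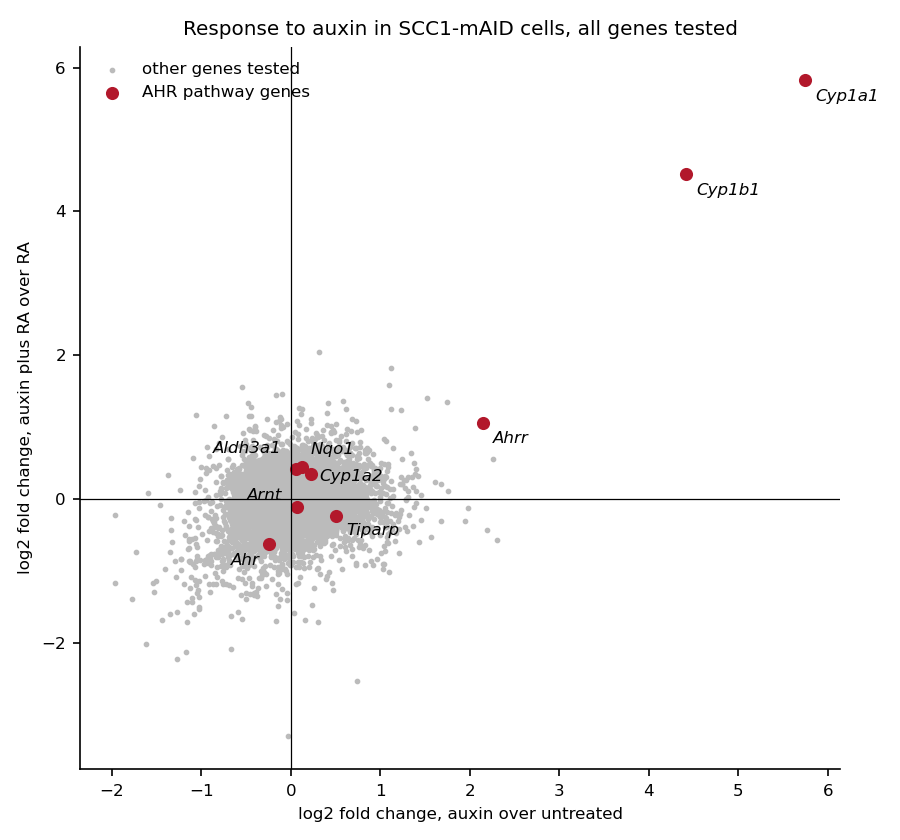
Log2 fold change of each gene tested with auxin against untreated (horizontal axis) and with auxin and RA against RA (vertical axis), members in colour. Cyp1a1 (5.75 and 5.83) and Cyp1b1 (4.42 and 4.52) lie apart from the 14015 genes at the upper right.

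Ahrr (chr13:74211118-74292309, minus strand) encodes the AHR repressor, a feedback gene that competes with AHR for ARNT. It had 1.61, 2.42 and 0.776 CPM with auxin and RA, 0.637, 3.40 and 6.63 CPM with auxin alone, 0.898, 1.04 and 0.541 CPM with RA alone and 0.675, 1.17 and 0.683 CPM in untreated cells. Of the auxin libraries, 2 lay above the untreated cells and replicate 1 lay below them. Its log2 fold change was 1.06 with auxin and RA against RA (adjusted p = 0.842) and 2.14 ± 0.56 with auxin against untreated (adjusted p = 0.111), at rank 6 of all genes. It passed the test without auxin replicate 1 (2.49, adjusted p = 0.0187) and with no filter (2.15, adjusted p = 0.0238), in a range over 13 alternatives of 1.28 to 2.49 and adjusted p from 0.0187 to 1.0.

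Tiparp encodes an ADP-ribosyltransferase that is also induced by AHR and acts back on it. It had 45.2, 57.5 and 31.6 CPM with auxin and RA, 43.6, 60.2 and 105 CPM with auxin, 53.9, 47.8 and 57.6 CPM with RA and 42.8, 51.9 and 54.4 CPM in untreated cells. Only auxin replicate 3 stood above all libraries without auxin by a wide margin. The log2 fold change with auxin against untreated was 0.50 ± 0.25 (adjusted p = 0.438) and became 0.09 without that library (adjusted p = 0.941). The start of Tiparp (chr3:65528447-65555518, plus strand) is overlapped by the antisense gene 4931440P22Rik at chr3:65527485-65529414, and it is not stated whether reads were counted by strand, so its values are uncertain to that extent.

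The receptor gene Ahr (chr12:35497979-35534989, minus strand) had 10.1, 14.2 and 7.50 CPM with auxin and RA, 14.01, 13.2 and 20.47 CPM with auxin, 19.8, 17.4 and 13.0 CPM with RA and 18.9, 19.25 and 18.4 CPM in untreated cells. The log2 fold change was -0.62 with auxin and RA against RA (adjusted p = 0.612) and -0.25 with auxin against untreated (adjusted p = 0.709), so neither passed the test. Arnt (chr3:95434390-95497239, plus strand), the partner of AHR, stayed between 61.6 and 95.1 CPM over the 12 libraries, with a log2 fold change of 0.07 with auxin against untreated. Cyp1a2 (chr9:57676937-57683655, minus strand), the liver enzyme next to Cyp1a1, ranged from 2.14 to 7.32 CPM in libraries with auxin and from 2.70 to 4.49 CPM in those without. Nqo1 (chr8:107388225-107403205, minus strand), a quinone reductase that is also a target of NRF2, ranged from 13.45 to 19.8 CPM with auxin and from 11.95 to 15.5 CPM without it. Aldh3a1 (chr11:61208742-61218416, plus strand), an aldehyde dehydrogenase, ranged from 2.23 to 6.21 CPM with auxin and from 2.34 to 5.01 CPM without it. The groups overlapped for these last 4 genes, except that Nqo1 was higher in all libraries with auxin and RA than in those with RA alone (log2 fold change 0.45, adjusted p = 0.666). The changes of Cyp1a2, Nqo1 and Aldh3a1 with auxin against untreated were 0.22, 0.13 and 0.06 on the log2 scale, and none passed the test.

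Per length, Cyp1a1 changed its place among the members. As mean CPM per kb of genomic span it had 11.9 with auxin and RA, 11.6 with auxin, 0.213 with RA and 0.222 in untreated cells. Cyp1b1 had 3.05, 4.98, 0.129 and 0.239 CPM per kb in the same groups, and Tiparp 1.65, 2.57, 1.96 and 1.84. In untreated cells the order was Tiparp, Arnt (1.26), Nqo1 (0.982), Ahr (0.5095), Cyp1a2 (0.461), Aldh3a1 (0.380), Cyp1b1, Cyp1a1 and Ahrr (0.0104). Neighbours in this order from Ahr to Cyp1a1 overlapped in their range over libraries, and the others did not. With auxin and RA, Cyp1a1 came first, Cyp1b1 next and Tiparp after them without overlap. With auxin alone the order of means was the same, but the range of Cyp1b1 overlapped those of both neighbours. In these orders Cyp1a1 was divided by a span of 15.897 kb, which begins upstream of the 6212 bases of the E14 row. Its place with the shorter span was not tested.

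The response to auxin did not differ detectably with RA. The interaction of auxin and RA had a log2 value of 0.08 ± 0.92 for Cyp1a1 (adjusted p = 0.984) and 0.10 for Cyp1b1 (adjusted p = 0.980). No member passed the interaction test, where 0.0% of genes tested passed with edgeR; DESeq2 and limma-trend each called 1 gene, edgeR with no filter on low counts called 3, and 985 genes had an unadjusted p under 0.05. RA alone for 4 h changed 0 of 9 members, and 0 had an unadjusted p under 0.05, where 2.53% of genes tested were called. In auxin-treated cells RA changed 0 of 9, where 2.67% were called. In that comparison 3 members had an unadjusted p under 0.05, namely Ahr (log2 fold change -0.55, adjusted p = 0.284), Ahrr (-1.15, adjusted p = 0.286) and Tiparp (-0.64, adjusted p = 0.239). Leaving out auxin replicate 3 gave Cyp1a1 a log2 fold change of 1.21 with RA in auxin-treated cells (adjusted p = 0.00485, in a range over 14 alternatives of 0.00485 to 1.0), against 0.03 with all libraries. Leaving out auxin replicate 1 gave Ahrr -1.49 (adjusted p = 0.0384) and Tiparp -0.86 (adjusted p = 0.0331).

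Among the related gene lists, with auxin against untreated, 0 genes were called among 10 AHR chaperones and coactivators, 6 of 17 further AHR targets that could be tested, 12 of 14 NRF2 targets, 9 of 13 bHLH-PAS relatives, 11 of 12 HIF targets and 8 cohesin genes, where 0.278% of all genes tested were called. The median log2 fold change of the 9 members was 0.22 there, against -0.01 over all genes tested. With auxin and RA against RA, 2 of 11 HIF targets fell, Egln3 (-1.25, adjusted p = 0.0402) and Vegfa (-0.92, adjusted p = 0.0473), where 0.35% of all genes tested fell (49 genes), and 0 genes of the other 5 lists were called. Egln3 encodes an oxygen-sensing prolyl hydroxylase and Vegfa a vascular growth factor. Of the kynurenine route 2 of 9 genes and of the aldehyde dehydrogenase relatives of Aldh3a1 3 of 7 could be tested, and 0 were called in either comparison. Summed levels of 5 hepatocyte markers did not exceed 1.035 CPM in any SCC1-mAID library, with Alb at 0 in all libraries of 3 of the 4 groups.

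Auxin replicate 3, the highest SCC1-mAID library for Cyp1a1 and Cyp1b1, also had the highest of the authors' size factors (2.108). Summed over all transcripts it held 8051604 reads, and auxin replicate 2, with a factor of 1.119, held 12043485. On the transcripts kept, 1 per gene symbol, these libraries held 4984487 and 7497894 reads in the same order. The authors' own scaling of the SCC1-mAID libraries departed from DESeq2's size factors by ratios of 0.643 to 2.18. Under it the median of all genes moved to -0.33 on the log2 scale with auxin and RA against RA and to -0.02 with auxin against untreated, and Cyp1a1 had 5.43 and 5.21 and Cyp1b1 4.19 and 3.94 in the same order. The authors' deposited table gives log2 fold changes of 3.55 (adjusted p = 9.7e-33) and 3.38 (adjusted p = 2.65e-31) for Cyp1a1, and 2.49 (adjusted p = 1.48e-12) and 2.64 (adjusted p = 1.39e-15) for Cyp1b1, with auxin and RA against RA and with auxin against untreated. These are smaller than the values refitted here under the authors' scaling, so the 2 estimates may be unlike measures. The reason was not tested. In the authors' deposited table Ahrr has 0.79 with auxin against untreated (adjusted p = 1).

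In wild-type E14 cells under RA, Cyp1a1 and Cyp1b1, the genes that rose with auxin, moved in opposite directions late. Cyp1a1 was highest at 2 h and had at most 1.04 CPM at 48 h, whereas Cyp1b1 was high from 48 h. At 2, 4 and 6 h against 0 h, 0 of 9 members passed the test, where 0.471%, 2.42% and 3.88% of 15061 genes tested were called. At 24 h 2 members rose and 1 fell, where 13.8% of genes rose and 13.9% fell. At 48 h 3 rose and 4 fell, where 28.5% rose and 27.4% fell, and at 72 h 3 rose and 5 fell, where 30.0% rose and 29.9% fell. With so many genes changed, the count of members is to be read against those shares. The median log2 fold change at 72 h was -0.81 over the members and -0.01 over all genes tested.

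Cyp1a1 had 5.545 and 13.1 CPM at 0 h, 37.3, 19.4, 35.4 and 23.8 CPM at 2 h, 13.2, 19.5, 7.196 and 12.4 CPM at 4 h and 9.76, 4.10, 4.745 and 8.76 CPM at 6 h. It then had 1.94, 4.03 and 2.21 CPM at 24 h, 1.04, 0, 0.946 and 0 CPM at 48 h, and 0.328, 0.948, 0.904 and 0.819 CPM at 72 h. All 4 libraries at 2 h lay above both at 0 h, the 2 h and 6 h groups did not overlap, and all libraries from 24 h on lay below those at 0 h. At 2 h against 0 h the log2 fold change was 1.62, which missed the threshold (adjusted p = 0.0784). DESeq2 called it (1.63, adjusted p = 0.0178), and so did the fit without replicate 2 of the 2 h group (1.78, adjusted p = 0.0422); over 15 alternatives adjusted p ranged from 0.0178 to 1.0. In the authors' deposited table it is 1.57 (adjusted p = 0.0322), and the authors' class for this gene is transient induction, at 2 h, with repression at 6 h.

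The fall from 2 to 6 h did not depend on the 0 h libraries. At 6 h against 2 h, a comparison added after seeing the data, Cyp1a1 fell by 2.13 ± 0.34 on the log2 scale (adjusted p = 0.00247; 4.22e-06 to 0.0782 over 17 alternatives) and was the only member called, where 0.299% of genes fell. Against 0 h it fell by 1.77 ± 0.52 at 24 h (adjusted p = 0.0142), fell by 4.10 ± 0.69 at 48 h (adjusted p = 3.05e-05) and fell by 3.615 ± 0.63 at 72 h (adjusted p = 4e-05). At 72 h this rests on 9 reads in 4 libraries against 360 reads in 2 libraries at 0 h, a ratio of 0.0764 (95% counting interval 0.0347 to 0.147). The 24 h call was lost in 6 of the alternatives, among them that without 0 h replicate 4 (-1.01, adjusted p = 0.262; range 0.00474 to 0.262).

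Cyp1b1 had 9.58 and 12.9 CPM at 0 h, 36.1, 40.6, 17.7 and 14.9 CPM at 2 h, 19.4, 35.7, 7.09 and 8.26 CPM at 4 h, and 14.95, 17.6, 5.76 and 9.70 CPM at 6 h. It had 17.0, 14.1 and 20.8 CPM at 24 h, 78.3, 171, 331 and 227 CPM at 48 h, and 132, 215, 325 and 211 CPM at 72 h. Every library at 48 and 72 h stood above every earlier library. The log2 fold change was 4.16 ± 0.72 at 48 h (adjusted p = 7.86e-05) and 4.29 ± 0.72 at 72 h (19.5-fold, adjusted p = 4.9e-05), and at 72 h against 6 h it was 4.21 (adjusted p = 2.75e-06). Early levels split by replicate number. At 2, 4 and 6 h together, replicates 1 and 2 had 14.95 to 40.6 CPM (median 27.5) and replicates 3 and 4 had 5.76 to 17.7 CPM (median 8.98). Summed levels of 9 fibroblast or mesenchyme markers moved with that split, at 371 to 938 CPM in replicates 1 and 2 and 83.0 to 118 CPM in replicates 3 and 4; their part in the early level of Cyp1b1 was not tested. The 0 h group holds replicates 3 and 4 only, so a comparison of all replicates with 0 h mixes this split with time. The markers summed to 111.5 and 112.5 CPM at 0 h, 649 to 802 CPM at 48 h and 605 to 886 CPM at 72 h. With replicates 3 and 4 only, the changes of Cyp1b1 were 4.63 at 48 h and 4.57 at 72 h.

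**Figure D3:**
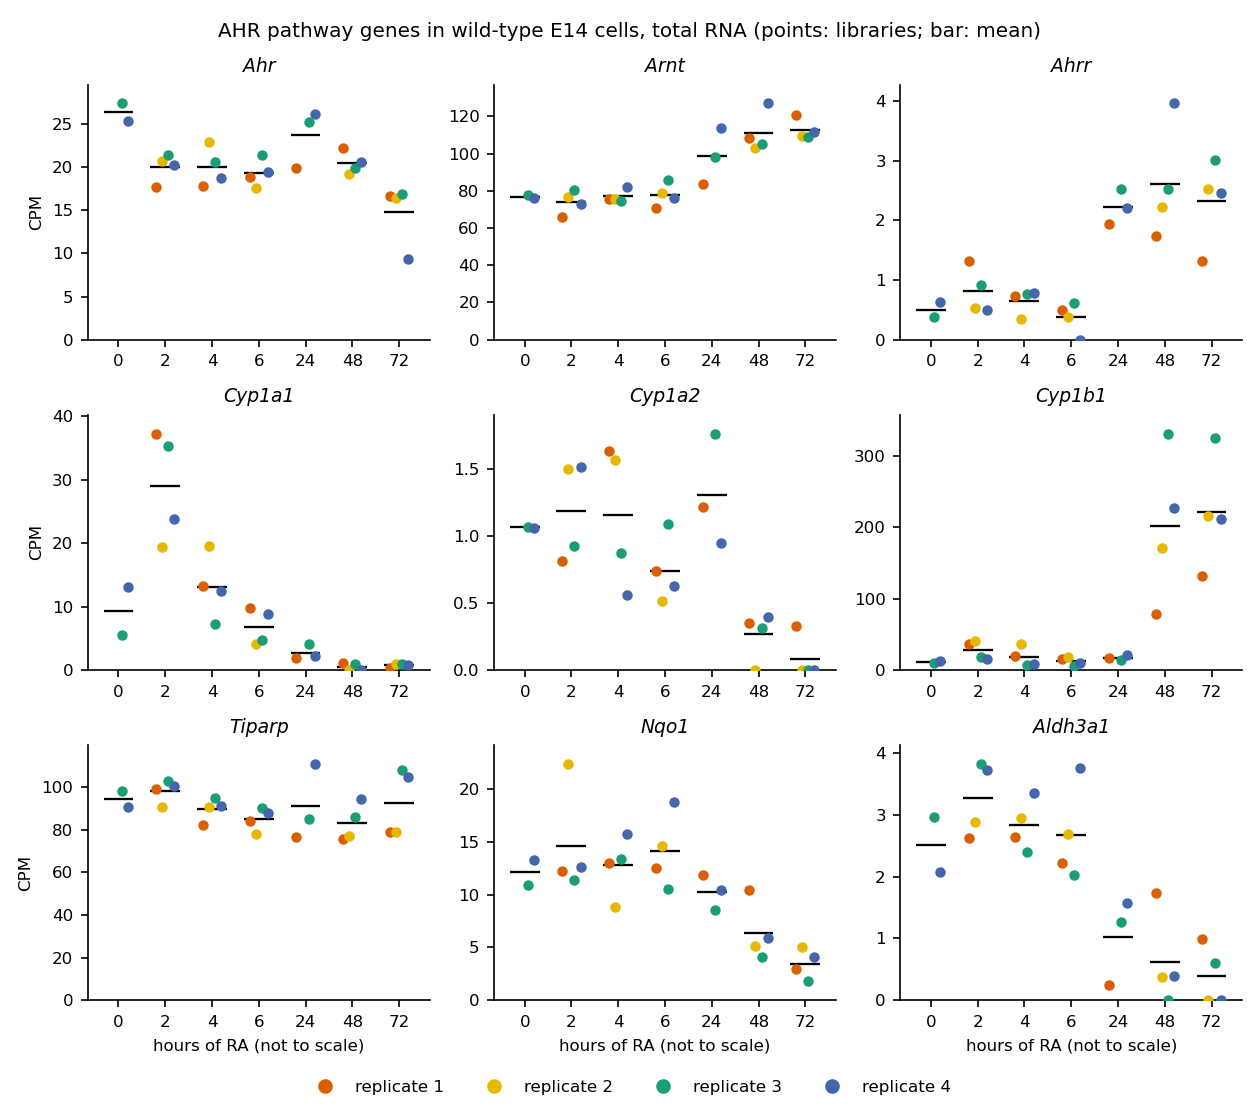
Level of each member (CPM, linear axis from 0, a scale of its own in each panel) in the 25 E14 libraries by hours of RA; points are libraries, coloured by replicate number, and bars are group means. Cyp1a1 is highest at 2 h (19.4 to 37.3 CPM) and Cyp1b1 at 48 and 72 h (78.3 to 331 CPM).

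The receptor gene Ahr was lower at 72 h than before RA, and its partner Arnt was a little higher. Ahr had 27.4 and 25.4 CPM at 0 h, 17.7 to 21.4 CPM at 2 h, 17.8 to 23.0 CPM at 4 h, 17.6 to 21.4 CPM at 6 h, 19.9 to 26.2 CPM at 24 h, 19.2 to 22.3 CPM at 48 h and 16.7, 16.4, 16.9 and 9.42 CPM at 72 h. The libraries at 2, 4, 6, 48 and 72 h lay below both at 0 h, and those at 24 h overlapped them. At 2, 4 and 6 h the log2 fold changes were -0.40, -0.40 and -0.45, which did not pass the test (adjusted p = 0.483, 0.215 and 0.107), and the authors' deposited table calls Ahr at 6 h (-0.48, adjusted p = 0.0302). At 72 h it was -0.81 ± 0.16 (adjusted p = 0.000122; -0.95 to -0.53 over 15 alternatives). At 72 h against 6 h it was -0.36 (adjusted p = 0.0337), and under the authors' scaling, which put the median of all genes at 0.32 in that comparison, it was -0.02 (adjusted p = 0.915). Arnt had 121, 110, 109 and 112 CPM at 72 h, against 77.6 and 75.9 CPM at 0 h, and the groups did not overlap. Its log2 fold change was 0.36 ± 0.12 at 24 h (adjusted p = 0.0309; 0.00276 to 0.169 over 14 alternatives), 0.53 ± 0.12 at 48 h (adjusted p = 0.000467) and 0.56 ± 0.12 at 72 h (adjusted p = 0.000234).

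Of the feedback genes, Ahrr rose from 24 h on. It had 0.378 and 0.627 CPM at 0 h, 1.94, 2.52 and 2.21 CPM at 24 h, 1.74, 2.22, 2.52 and 3.96 CPM at 48 h and 1.31, 2.53, 3.01 and 2.46 CPM at 72 h. All of these later libraries lay above both at 0 h, at low levels throughout. Log2 fold changes against 0 h were 2.08 ± 0.48 at 24 h (adjusted p = 0.00215), 2.29 ± 0.46 at 48 h (adjusted p = 0.000152) and 2.15 ± 0.46 at 72 h (adjusted p = 0.000273). Tiparp ranged from 75.5 to 111 CPM over all 25 libraries and had 79.0, 79.0, 108 and 105 CPM at 72 h, against 98.05 and 90.5 CPM at 0 h, with no call at any time against 0 h. The authors' deposited table calls Tiparp up at 72 h (0.36, adjusted p = 0.0202). At 72 h against 6 h its log2 fold change was 0.12 (adjusted p = 0.356; 0.00371 to 0.731 over 17 alternatives), and it passed the test under the authors' scaling (0.48, adjusted p = 0.00371) and with limma on the deposited signal (0.45, adjusted p = 0.00649).

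The remaining target genes were lower late. Nqo1 had 10.9 and 13.3 CPM at 0 h, 10.4, 5.17, 4.10 and 5.94 CPM at 48 h and 2.95, 5.05, 1.81 and 4.09 CPM at 72 h. Every 48 and 72 h library lay below both at 0 h. It fell by 0.92 ± 0.32 on the log2 scale at 48 h (adjusted p = 0.0166; 0.00121 to 0.12 over 15 alternatives) and by 1.81 ± 0.35 at 72 h (adjusted p = 6.94e-05). Aldh3a1 had 0.984, 0, 0.6025 and 0 CPM at 72 h, against 2.96 and 2.07 CPM at 0 h, and fell by 2.54 ± 0.63 (adjusted p = 0.00121), on 5 reads against 90 reads (ratio 0.170, counting interval 0.0538 to 0.411). Cyp1a2 had 0.328, 0, 0 and 0 CPM at 72 h, against 1.07 and 1.06 CPM at 0 h, on 1 read against 39 reads (ratio 0.0784, counting interval 0.00194 to 0.463; adjusted p = 0.00133). At 48 h, with 3 reads of Cyp1a2 and 7 of Aldh3a1 over 4 libraries, and at 72 h both genes were near the limit of detection. At 72 h against 6 h, which does not use the 0 h libraries, 3 members rose, where 30.1% of genes rose, and 5 fell, where 31.6% fell.

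By the authors' FPKM, which are scaled for transcript length, the order at 0 h was Tiparp (mean 12.6 FPKM), Arnt (9.77), Nqo1 (4.34), Ahr (2.67), Cyp1a1 (1.98), Cyp1b1 (1.22), Aldh3a1 (0.879), Cyp1a2 (0.313) and Ahrr (0.0590). The ranges of Ahr and Cyp1a1 overlapped at 0 h, as did those of Cyp1a1 and Cyp1b1. Cyp1a1 reached 6.13 ± 1.71 FPKM at 2 h (SD, n = 4) and had 0.192 ± 0.0693 FPKM at 72 h. At 72 h Cyp1b1 led the members with 29.3 ± 11.2 FPKM, followed by Arnt (17.6), Tiparp (15.3), Ahr (1.83) and Nqo1 (1.49). Ranges overlapped there between Cyp1b1 and Arnt, between Arnt and Tiparp and between Ahr and Nqo1. Pluripotency markers summed to 571 to 1779 CPM at 72 h, against 3327 to 3398 CPM at 0 h, and 10 extra-embryonic endoderm markers to 2275 to 3975 CPM, against 701 to 725 CPM; their part in the late changes of the members was not tested.

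Genes whose log2 levels ran closest to those of a member over the 25 E14 libraries were the cadherin genes Cdh2 (Pearson r = 0.968) and Cdh11 (0.964) and Trabd2b (0.963) for Cyp1b1. For Cyp1a1 they were Grk6 (0.941), Kbtbd11 (0.936) and Rpl35a (0.927). Ass1 and Gm5424 (both 0.948) ran closest to Nqo1, Pi4ka (0.954) to Arnt, Asl (0.910) to Ahrr, Sod2 (0.917) to Aldh3a1, Cd80 (0.896) to Cyp1a2 and Cftr (0.869) to Ahr. The libraries share their time groups, so these values describe a common time course.

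Pathway neighbours were also counted at 72 h against 0 h in E14 cells, where 30.0% of all genes tested rose and 29.9% fell, shares against which each count is to be read. Of 13 NRF2 targets tested 0 rose and 7 fell, among them the heme oxygenase gene Hmox1 (log2 fold change -1.93) and the glutathione synthesis genes Gclm (-1.29) and Gclc (-0.64). Of 7 further AHR targets 2 rose and 3 fell, with Nedd9, a scaffold protein of focal adhesions, at 5.39 and the cytochrome gene Cyp2s1 at -2.74. Cyp2s1 had also fallen at 6 h (-1.50, adjusted p = 0.00316). Of 9 bHLH-PAS relatives 2 rose and 3 fell, including Arnt2, the close relative of Arnt (2.46), and Epas1, which encodes HIF2-alpha (-2.39). Of 6 aldehyde dehydrogenase genes 5 rose and 1 fell, with the RA-synthesising Aldh1a1 at 6.03 and Aldh1a2 at 3.74, opposite in sign to Aldh3a1. Of 10 chaperones and coactivators 1 rose (Ncoa2, 1.56) and 2 fell (Ncoa3, -1.002, and Hsp90aa1, -0.66). Kynu (2.83) was the only call among 3 genes of the kynurenine route, and of 12 HIF targets 2 rose and 3 fell.

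**Figure D4:**
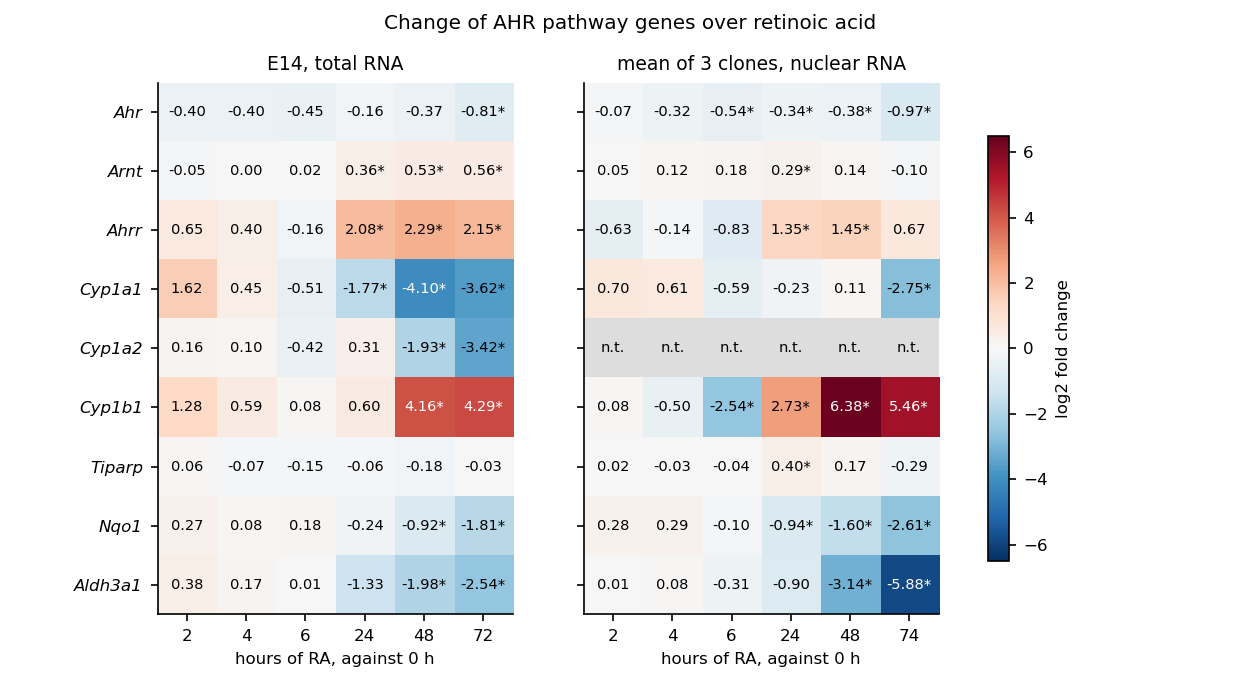
Log2 fold change of each member against 0 h at each time of RA in E14 cells and in the mean of the 3 clones; an asterisk marks an adjusted p under 0.05 and n.t. a gene not tested. Cyp1b1 is the member with the highest positive values late, 4.29 at 72 h in E14 cells and 5.46 at 74 h in the clones.

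In the nuclear RNA of the clones E3, H12 and G4, Cyp1b1 again rose late with RA, Nqo1 and Aldh3a1 fell, and Cyp1a1 stayed low with no peak that passed the test. Against 0 h, as the mean of the 3 clones, 0 of 8 members tested were called at 2 and 4 h, where 20.9% and 20.6% of 15896 genes were called. Cyp1a2 had 17 reads over 6 libraries at 0 h and was not tested. At 6 h 0 rose and 2 fell, where 8.88% of genes fell. At 24 h 4 rose and 2 fell (28.7% of genes rose and 26.6% fell), and at 48 h 2 rose and 3 fell (35.4% rose and 34.4% fell). At 74 h 1 rose and 4 fell, where 36.8% of genes rose and 36.8% fell.

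Cyp1b1 had a lowest, median and highest level over the 6 libraries of 0.512, 3.28 and 9.10 CPM at 0 h, 0, 1.53 and 4.705 CPM at 6 h, 2.98, 35.15 and 69.15 CPM at 24 h, 130, 275 and 390 CPM at 48 h and 93.0, 126.5 and 162 CPM at 74 h. All libraries at 48 and 74 h stood above all at 0 and 6 h, and the 48 h median was above the 74 h median. Its log2 fold change against 0 h was -2.54 ± 0.65 at 6 h (adjusted p = 0.0051), 2.73 ± 0.25 at 24 h (adjusted p = 2.73e-10), 6.38 ± 0.21 at 48 h (adjusted p = 9.36e-21) and 5.46 ± 0.21 at 74 h (adjusted p = 1.58e-19). The fall at 6 h rested mainly on H12, which had 0 reads at 6 h against 12 at 0 h (at least 3.79-fold lower against a floor of 3 reads over the group). Clone by clone the 6 h value was -1.08 in E3 and -0.89 in G4, and it did not pass the test in any clone alone.

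Ahr had 9.68, 14.9 and 18.8 CPM at 74 h, against 22.4, 28.7 and 36.0 CPM at 0 h (lowest, median and highest of 6), with no overlap. It fell by 0.54 ± 0.14 on the log2 scale at 6 h (adjusted p = 0.00653) and by 0.97 ± 0.15 at 74 h (adjusted p = 4.75e-07). Nqo1 had 0.432, 0.893 and 2.14 CPM at 74 h, against 4.45, 5.70 and 7.31 CPM at 0 h, again without overlap. It fell by 0.94 ± 0.18 at 24 h (adjusted p = 5.71e-05), by 1.60 ± 0.19 at 48 h (adjusted p = 9.15e-09) and by 2.61 ± 0.22 at 74 h (adjusted p = 3.95e-12). Aldh3a1 had 0 reads in all 6 libraries at 74 h, against 46 reads at 0 h, at least 15.4-fold lower against a floor of 3 reads over the group (adjusted p = 1.38e-06).

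Ahrr had 0.381 to 1.92 CPM at 0 h (median 1.05), 1.87 to 4.35 CPM at 24 h (median 2.81), 1.77 to 4.205 CPM at 48 h (median 3.06) and 1.26 to 2.59 CPM at 74 h (median 1.57). Its log2 fold change was 1.35 ± 0.33 at 24 h (adjusted p = 0.000838) and 1.45 ± 0.32 at 48 h (adjusted p = 0.000179), while 0.67 at 74 h missed the threshold (adjusted p = 0.0835). Arnt rose by 0.29 at 24 h (adjusted p = 0.00557), and Tiparp by 0.40 at 24 h (adjusted p = 0.0201; 0.76 in H12, 0.36 in E3 and 0.09 in G4). Cyp1a1 had 0 to 0.611 CPM at 74 h (9 reads in all), against 0.254 to 1.30 CPM at 0 h (34 reads), a ratio of 0.264 (counting interval 0.111 to 0.561). Its fitted fall at 74 h passed the test (adjusted p = 0.000856; 0.000371 to 0.2 over 22 alternatives). At 2 h its log2 fold change was 0.70 (adjusted p = 0.246), with 0.547 to 1.62 CPM on 45 reads over 6 libraries, so a small early change was not detectable at this depth.

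Of the related lists at 74 h in the clones, where 36.8% of all genes tested rose and 36.8% fell, 1 of 13 NRF2 targets rose and 8 fell, with Gclm at -1.21 and Gsta4, a glutathione transferase gene, at -1.31, and 1 of 9 further AHR targets rose and 7 fell. Nedd9, Cyp2s1 and Slc7a5, an amino acid transporter gene, had 6.28, -2.74 and -1.17, the signs they had in E14 cells at 72 h. The bHLH-PAS relatives had 2 up and 3 down of 11, the chaperones and coactivators 2 up and 4 down of 10, and the HIF targets 2 up and 3 down of 11. The aldehyde dehydrogenase genes had 3 up and 0 down of 5, and the kynurenine route 2 up and 1 down of 4.

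The clones differed most in Cyp1b1. From 0 to 6 h it had 1.06 to 4.70 CPM in E3 (median 3.59, 8 libraries) and 0 to 1.30 CPM in H12 (median 0.466), against 3.71 to 9.54 CPM in G4 (median 6.04). H12 lay below G4 without overlap, and E3 overlapped both. At 48 h it had 333 and 217 CPM in E3 and 130 and 130 CPM in H12, against 390 and 368 CPM in G4; at 74 h it had 152 and 162 CPM in E3 and 100.3 and 100.6 CPM in H12, against 161 and 93.0 CPM in G4. At 74 h, unlike 48 h, the deletion clones and G4 overlapped. Averaged over times, 0 members rose and 2 fell in the deletion clones against G4, where 17.0% of genes fell. The log2 fold change of Cyp1b1 was -2.03 ± 0.16 (adjusted p = 5.68e-11), with -0.63 for E3 only (adjusted p = 0.0026) and -3.42 for H12 only (adjusted p = 3.67e-13; 8.99e-32 to 0.0026 over 51 alternatives). The mean over times includes H12 at 6 h with 0 reads, so the sizes of -2.03 and -3.42 are uncertain. Tiparp had -0.28 ± 0.08 (adjusted p = 0.00954), and E3 only did not pass the test (-0.15, adjusted p = 0.348).

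The pair of deletion clones differed from each other in 5 members. In E3 against H12, 3 were higher, where 20.4% of genes were, and 2 were lower, where 20.6% were. Cyp1b1 had a log2 fold change of 2.79 ± 0.27 (adjusted p = 1.22e-09), Ahr 0.56 (adjusted p = 1.41e-05), Tiparp 0.27 (adjusted p = 0.0275), Nqo1 -0.46 (adjusted p = 0.00518) and Arnt -0.24 (adjusted p = 0.00138). The size for Cyp1b1 is uncertain, since H12 had 0 reads of it at 6 h. Ahr had a median of 28.2 CPM in E3 and 18.2 CPM in H12 over 14 libraries each, against 24.05 CPM in G4. The response of Cyp1b1 to 74 h of RA also differed, by 2.23 ± 0.44 on the log2 scale for deletion clones against G4 (adjusted p = 0.00224), the only member among 8 to pass that test, where 4.1% of genes were higher. The separate responses were 5.58 in E3 and 6.83 in H12, against 3.98 in G4, and for E3 only the difference was 1.60 (adjusted p = 0.106). At 74 h extra-embryonic endoderm markers summed to 2107 to 2582 CPM in E3, 16050 to 18080 in H12 and 1869 to 2499 in G4. Fibroblast or mesenchyme markers summed to 668.2 to 691.5 CPM in E3, 1092 to 1220 in H12 and 216.7 to 383.9 in G4. Trophoblast markers had 257.5 to 275.1, 246.4 to 282.3 and 76.98 to 152.6 CPM in the same order. Neural progenitor markers had 309.9 to 324.0, 314.9 to 528.6 and 403.5 to 419.2 CPM. The part of these markers in the differences of Cyp1b1 and the other members was not tested.

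**Figure D5:**
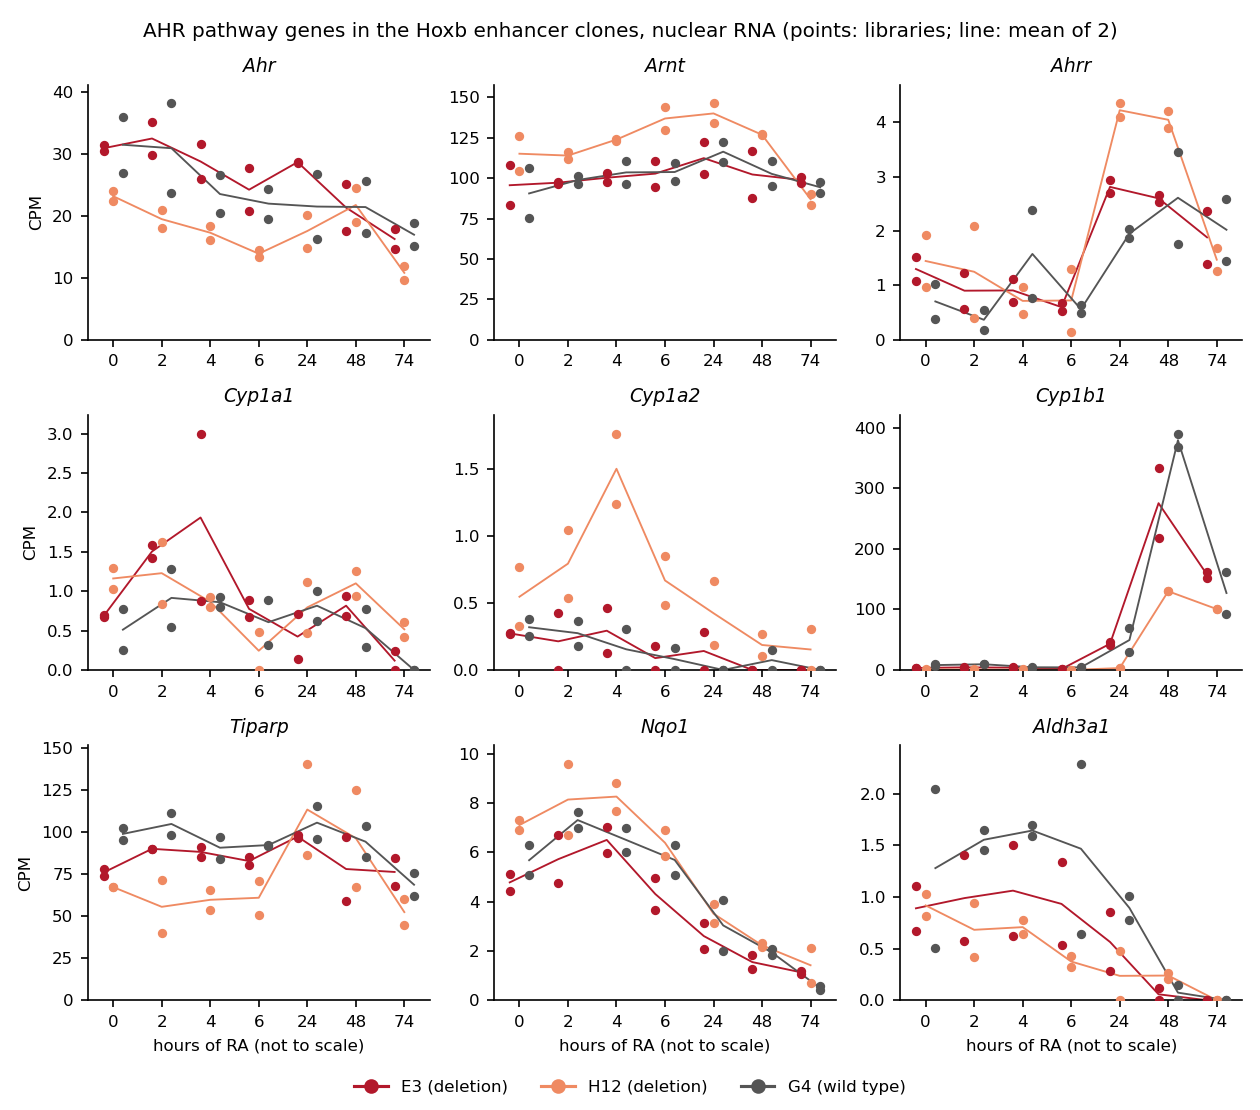
Level of each member (CPM, linear axis from 0, a scale of its own in each panel) by hours of RA in the deletion clones E3 and H12 and the wild-type clone G4; points are libraries and lines join the means of 2 libraries. Cyp1b1 is lowest in H12 up to 48 h, where it has 130 and 130 CPM against 390 and 368 CPM in G4.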

How the data were processed

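The 9 members and the related gene lists were chosen with earlier results of these data known. Tools named in the submitters' processing notes are STAR and Bowtie2, which align reads, SAMtools, and DESeq2; the builds named there are mm10 and dm6. Versions, order and the counting program are not given in the sources used here. Per the labels' protocols, libraries were directional, made after removal of ribosomal RNA and read as pairs, and Drosophila SG4 cells were added for calibration. The tables the authors deposited hold a normalised signal per RefSeq transcript and library, and the authors' FPKM for E14 libraries, a log2 fold change and an adjusted p-value per comparison, and an hour of induction or repression, which are quoted only where named.

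The signal is a read count divided by 1 size factor per library, so whole reads were recovered (100.0% of values within 0.1 read of a whole number in every library). Transcripts that share start and end were equal in all libraries in 3729 of 3729 sets in SCC1-mAID cells and 3745 of 3745 in the clones, so these count reads over introns too, against 663 of 3747 in E14. SCC1-mAID rows were named through the other tables and RefSeq; 81, 1040 and 81 rows of the E14, SCC1-mAID and clone tables have no name and were left out. The transcript with the highest mean share of reads stood for each symbol. Strand use in counting is not stated.

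A separate edgeR fit was made per set of libraries, over all groups of the set (edgeR 4.0.16, limma 3.58.1, R 4.3.3, Python 3.11.15), with filterByExpr, TMM, robust quasi-likelihood F-tests, and Benjamini-Hochberg adjustment over 15061 (E14), 14015 (SCC1-mAID) and 15896 (clones) genes. A call is an adjusted p under 0.05. SE is the absolute log2 fold change over the root of F; it is unreliable near 0 and with few reads. Counting intervals (95%, exact) and floors (3 reads) cover counting error only, since reads have no molecular identifiers. On simulated data the fits recovered 63%, 73% and 82% of 2-fold changes and 95%, 97% and 99% of 4-fold changes, at 72 h in E14, with auxin, and at 74 h in the clones. Alternatives were DESeq2 1.42.0, limma-trend, limma on the deposited signal (pseudocount 1), the authors' scaling, no filter, the longest transcript, only the groups compared, a replicate block and each library left out. Those chosen after seeing the data were E14 replicates 3 and 4 only, times compared with 2 or 6 h, and single clones.

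Named genes were all members, up to 4 called genes of each list with the smallest adjusted p, the 3 genes nearest to a called member by Pearson r, and Rad21 and Cyp26a1 as checks. Separate cultures are stated as biological replicates for E14 cells only; elsewhere p-values measure the spread between libraries, which may be technical. Deviations of same-numbered libraries from their group means had median correlations of 0.15 in SCC1-mAID cells, 0.07 in E14 and 0.08 in the clones. Those of differently numbered libraries had medians of -0.08, -0.02 and -0.08. In the clones, with 2 libraries per group, the deviations within a group are exact opposites. The clone value for different numbers is therefore fixed by that for equal numbers and adds no comparison. Same-numbered libraries did not deviate together in every pair (lowest correlation -0.38, -0.17 and -0.33 in the same order). The main fits used no pairing, and the replicate block was run as an alternative.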

Additional observations from a re-analysis of the deposited data

Results flagged for a closer look

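In groups of 4 libraries, a library was picked out when its gap to the nearest other library took up more of the group's range than Dixon's 95% critical value. This happened in 5 of 45 groups of the members in E14 cells, and chance flags about 1 in 20 groups. The lowest Ahr level at 72 h was 9.42 CPM, apart from the other 3 libraries near 16 to 17 CPM. The highest Arnt level at 4 h was 82.1 CPM, and the lowest Ahrr level at 4 h was 0.348 CPM. Cyp1a2 at 72 h had 0.328 CPM in a single library, from 1 read, and 0 in the others. The highest Nqo1 level at 2 h was 22.4 CPM.

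The response of Cyp1b1 to 74 h of RA differed between the deletion clones and G4 by 2.225 on the log2 scale, by an interaction term (edgeR's quasi-likelihood test, adjusted p = 0.00224). With E3 only the difference was 1.60 (adjusted p = 0.106), and with H12 only it was 2.85 (adjusted p = 0.0018). At 74 h all 6 libraries of the deletion clones and G4 lay between 93.0 and 162 CPM, whereas at 0 h the deletion clones had 0.512 to 3.60 CPM, against 6.99 and 9.10 CPM in G4.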

How the results depend on the processing

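None of the 189 fold changes of members reversed as a called value in any alternative run: 3515 values kept their direction and side of the threshold, 80 lost a call and 46 gained one. Counts of members called moved by over 1.5 times in these cases. DESeq2 called 1 member at 2 h in E14 (0 in the report), and limma on the deposited signal 1 at 24 h (3). With only the compared groups in the fit, 5 were called at 72 h (8), 4 at 72 h against 6 h (8) and 1 with auxin against untreated (2); the low-count filter then leaves fewer genes tested. At 6 h against 2 h both limma fits called 0 (1). With no filter, 1 was called with auxin and RA against RA (2). Single clones gave 0 at 6 h in each clone (2), 2 at 24 h in G4 and in E3 (6), 3 at 48 h in E3 and in H12 (5), 1 for E3 only and 5 for H12 only against G4 (2), and 0 for E3 only in the 74 h response (1). Leaving out each replicate in turn gave 0 to 1 at 2 h in E14 (1 without 2 h replicate 2), 1 to 2 at 24 h in E14 (1 without 0 h replicate 4 or 24 h replicate 4) and 0 to 2 with auxin and RA against auxin (2 without auxin replicate 1, 1 without auxin replicate 3). The cause was not tested.

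With the replicate number as a block, 1 member was called at 4 h in the clones (0 without the block), namely Ahr (-0.31, adjusted p = 0.0367), Tiparp passed at 74 h (-0.30, adjusted p = 0.0327), and Arnt passed in the deletion clones against G4 (0.12, adjusted p = 0.0365). Over all genes, auxin against untreated gave 39 calls (3 to 184), 108 with the block, 5 with only its groups, and 4 to 68 as each library was left out; auxin and RA against RA gave 55 (4 to 94), RA 355 (72 to 763) and auxin and RA against auxin 374 (47 to 829). In E14, calls were 71 at 2 h (19 to 326), 365 at 4 h (71 to 1131), 585 at 6 h (149 to 1622), 4166 at 24 h (1924 to 5908) and 93 at 6 h against 2 h (22 to 451). In the clones they were 3329 at 2 h (lowest 375), 3282 at 4 h (693), 3176 at 6 h (780), 8795 at 24 h (4720), 4874 for deletion against G4 (2018 to 7078) and 1125 in the 74 h response (92 to 1968). Reads limit Ahrr in every set, Cyp1a2 in E14 cells and the clones, Aldh3a1 late in RA, and Cyp1a1 late in RA in E14 cells and at every time in the clones, where differences of a few reads were not detectable.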
